A study of Mus musculus with 3 samples.

Results

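The 7 genes described here make, package, clear and sense GABA, the main inhibitory transmitter of the cortex: Gad1, Gad2, Slc32a1, Slc6a11, Abat, Gabbr1 and Gabbr2. They were taken by name from the 18118 coding genes with a value in a table of transcript levels, where 32 transcripts belong to them. RNA came from wild-type mouse cortical neurons that received the control treatment (labelled CON), in 3 libraries that form 1 group, named replicates 1 to 3 after their titles. Strain, age and the number of days in culture are not given in the sources used here. Nothing says that the libraries came from separate cultures, so p-values refer only to these libraries, whose spread may be technical. With 1 group, genes were compared with each other inside each library.

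GABA is made from glutamate by glutamate decarboxylase, which mouse neurons encode in the genes Gad1 and Gad2. The vesicular transporter encoded by Slc32a1 loads it into synaptic vesicles, plasma membrane transporters take it up again after release, and the mitochondrial transaminase encoded by Abat starts its breakdown. GABA-B receptors are G protein-coupled dimers of the Gabbr1 and Gabbr2 products: the first binds GABA and the second couples to the G protein. In cortex, Gad1, Gad2 and Slc32a1 mark inhibitory interneurons, Slc6a11 is mainly astrocytic, and GABA-B receptors are found in excitatory neurons, interneurons and glia alike.

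Values are TPM, a transcript level scaled by transcript length and library total, as the authors deposited them. A gene's value is that of 1 coding transcript, the one with the largest product of mean TPM and exonic length. Overlapping transcripts share reads and each counts towards the library total, so these values are lower than TPM scaled over genes. TPM times exonic length came out as whole numbers of reads, which gave 36839552, 32855103 and 32167110 reads on the coding transcripts used in replicates 1, 2 and 3. Pan-neuronal markers were expressed (mean of at least 1 TPM) in 8 of 8 cases, excitatory markers in 10 of 10, interneuron markers in 14 of 16, astrocyte markers in 11 of 12 and oligodendrocyte lineage markers in 7 of 9. At this minimum 61.8% of all 18118 coding genes were expressed, so a count alone does not show a cell type. Of 7 microglial markers 1 was expressed, Aif1 at 1.03 ± 0.43 TPM (SD, n = 3). Of 8 endothelial and pericyte markers 2 were, Acta2 at 3.07 ± 0.85 and Pdgfrb at 1.08 ± 0.31 TPM. Tmem119 and Cldn5 were the only markers of these lists at 0 in each library. Neuronal markers were present as labelled, beside astrocyte markers led by Slc1a3 (184 ± 19.1 TPM), Aldoc (128 ± 21.4 TPM) and Slc1a2 (59.6 ± 5.45 TPM). Markers of the oligodendrocyte lineage were led by the transcription factor gene Olig1 (34.4 ± 2.91 TPM; SD, n = 3), its relative Olig2 (15.95 ± 6.36 TPM) and the receptor gene Pdgfra (11.6 ± 6.73 TPM).

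The sequences before the starts of the genes for synthesis and vesicular loading are shown because these genes differed most between the libraries, and those of Gabbr1 because its transcripts begin at separate starts. They run from 250 bases before to 50 bases after the RefSeq start on GRCm38.p6, 5′ to 3′ on the plus strand, and the start need not be that of the deposited transcript. The last one holds the 250 bases before the deposited start of the transcript Gabbr1-203, read from the same genome. Capitals mark matches, on either strand, to any of 5 short motifs. These are TAATTA, the core that many homeodomain factors recognise; CANNTG, the E-box of helix-loop-helix factors; GGGCGG, the GC box; TATAAA, the core of the classic element bound during transcription initiation; and TGACGTCA, the full cAMP response element. No 2 matches in these windows overlap.
Gad1, chr2:70561879-70562178: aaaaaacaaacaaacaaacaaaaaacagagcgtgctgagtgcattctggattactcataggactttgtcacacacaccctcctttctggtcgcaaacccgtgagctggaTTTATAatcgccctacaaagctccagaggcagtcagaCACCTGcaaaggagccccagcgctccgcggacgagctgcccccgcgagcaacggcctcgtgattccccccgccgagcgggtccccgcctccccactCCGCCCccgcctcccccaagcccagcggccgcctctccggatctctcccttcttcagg
Gad2, chr2:22622077-22622376: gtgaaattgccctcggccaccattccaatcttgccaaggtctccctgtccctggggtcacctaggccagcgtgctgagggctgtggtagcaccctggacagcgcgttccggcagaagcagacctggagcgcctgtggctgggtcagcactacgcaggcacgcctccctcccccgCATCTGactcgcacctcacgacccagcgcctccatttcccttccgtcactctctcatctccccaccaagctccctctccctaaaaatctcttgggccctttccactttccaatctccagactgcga
Slc32a1, chr2:158610508-158610807: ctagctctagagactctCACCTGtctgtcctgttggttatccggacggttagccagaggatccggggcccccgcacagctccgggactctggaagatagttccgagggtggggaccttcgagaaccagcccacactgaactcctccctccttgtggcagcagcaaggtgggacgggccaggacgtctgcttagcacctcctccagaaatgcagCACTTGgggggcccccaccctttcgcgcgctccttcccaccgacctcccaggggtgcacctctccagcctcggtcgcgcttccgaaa
Gabbr1, chr17:37045716-37046015: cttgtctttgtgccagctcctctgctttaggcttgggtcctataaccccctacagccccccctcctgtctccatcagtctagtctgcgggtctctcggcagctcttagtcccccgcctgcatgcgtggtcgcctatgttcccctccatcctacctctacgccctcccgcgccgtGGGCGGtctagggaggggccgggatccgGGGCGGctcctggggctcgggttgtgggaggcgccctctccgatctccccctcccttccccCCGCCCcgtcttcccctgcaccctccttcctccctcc
Gabbr1-203 upstream, chr17:37050381-37050630: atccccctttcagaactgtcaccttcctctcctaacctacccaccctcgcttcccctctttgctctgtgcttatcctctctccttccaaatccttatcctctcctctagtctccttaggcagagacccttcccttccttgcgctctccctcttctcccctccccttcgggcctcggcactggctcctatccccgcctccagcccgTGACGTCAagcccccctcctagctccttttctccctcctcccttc

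Among 32841 RefSeq promoters of the same length, 72.3% held an E-box, 35.7% a GC box, 13.6% a TATA box, 5.29% the homeodomain core and 1.79% the full cAMP response element. An E-box was found at 1 place each in the windows of Gad1 and Gad2 and at 2 places in that of Slc32a1, so they shared a motif that most promoters hold. Gad1 also held 1 GC box and 1 TATA box, whose first base lies 141 bases before the start and which is read on the minus strand. The Gabbr1 window held a GC box at 3 places, and those of Gabbr2 and Slc6a11 held it at 2 and 4 places. The cAMP response element stood before Gabbr1-203, with its first base 45 bases before that start, in a window of 250 bases rather than 300. A match is only a run of letters here, and binding was not measured. GC content was 60.0% for Gad1, 61.3% for Gad2, 63.3% for Slc32a1 and 67.3% for Gabbr1, against a median of 52.7% over all promoters, and it reached 80.3% for Gabbr2 and 72.3% for Slc6a11. None of the windows held the homeodomain core. A promoter was matched for 6 of the 7 genes, all but Abat.

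All 7 genes were expressed, as were 61.8% of all coding genes, and their order ran from Gad1 through Gabbr1, Abat, Gabbr2, Slc6a11 and Gad2 to Slc32a1. The median of the 7 genes was 33.4 ± 2.98 TPM (SD, n = 3), against 2.90 ± 0.015 TPM over all coding genes. The highest, Gad1, exceeded 97.9% of coding genes, and the lowest, Slc32a1, exceeded 86.9%. The summed level of the 7 genes was 306 TPM in replicate 1, 355 TPM in replicate 2 and 259.8 TPM in replicate 3.

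**Figure D1:**
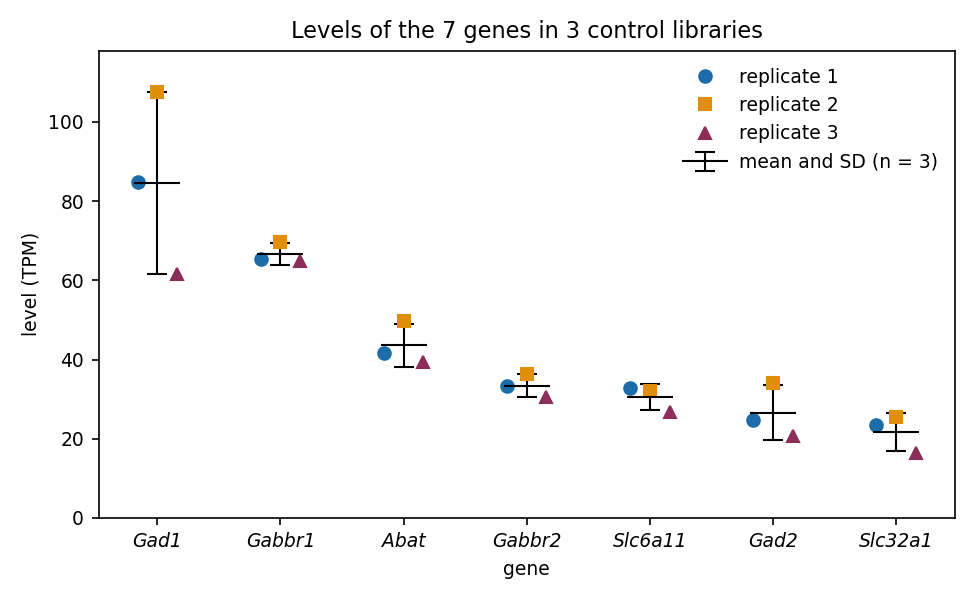
Level in TPM (vertical axis, linear from 0) of each of the 7 genes in 3 control libraries, with symbols for replicates and bars for mean and SD (n = 3), ordered by mean. Gad1 spans 61.5 to 107 TPM, while Gabbr1 stays between 64.8 and 69.8 TPM.

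Gad1 encodes the larger decarboxylase isoform, which is found throughout the neuron and supplies most of its GABA. It stood at 84.9, 107 and 61.5 TPM in replicates 1, 2 and 3, from 14605, 15588 and 9423 reads. Replicate 2 was highest and replicate 3 lowest, a 1.75-fold span. The mean was 84.6 ± 23.0 TPM, a coefficient of variation of 27.2%, whereas the reads give a counting error of 0.80% to 1.03% per library. The 95% Poisson intervals, which cover counting error only, were 83.6 to 86.3, 106 to 109 and 60.2 to 62.7 TPM and did not overlap. Of 4863 coding genes with at least 10 TPM, 0.494% had a coefficient of variation at least as large as that of Gad1. The gene (ENSMUSG00000070880.10) spans 70553072 to 70602014 on chromosome 2 of GRCm38, plus strand, and its value comes from Gad1-201, with 17 exons and 3355 exonic bases.

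Gad2 encodes the smaller isoform, which is anchored at synaptic vesicle membranes of axon terminals. It stood at 24.7, 34.2 and 20.7 TPM in replicates 1, 2 and 3, with a mean of 26.5 ± 6.92 TPM (SD, n = 3). As for Gad1, replicate 2 was highest and replicate 3 lowest, and the counting error was at most 1.36% against a coefficient of variation of 26.1%. Among coding genes of at least 10 TPM, 0.576% varied as much. The gene spans 22622205 to 22693874 on chromosome 2, plus strand, with 16 exons in 5744 exonic bases.

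Gad1 exceeded Gad2 in each of the 3 libraries, with ratios of 3.43, 3.15 and 2.97 in replicates 1, 2 and 3. The difference inside a library was 1.66 ± 0.10 on the log2(TPM + 0.1) scale (SD, n = 3; two-sided exact sign-flip permutation p = 0.25, adjusted p = 0.25 over 7 pairs). With 3 libraries 0.25 is the smallest p that this test allows, so no pair could reach 0.05. It is reached whenever the 3 differences share a sign, whatever their spread. Though both levels moved between libraries, their ratio varied by 0.23 (SD) around 3.18. With all coding transcripts of a gene summed, which counts shared reads repeatedly, the difference was 3.49 log2 units.

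Slc32a1 encodes the vesicular GABA transporter, which also loads glycine. It stood at 23.5, 25.5 and 16.3 TPM in replicates 1, 2 and 3, from 3364, 3084 and 2078 reads, with a mean of 21.7 ± 4.86 TPM. Replicate 3 was again lowest, with a Poisson interval of 15.6 to 17.0 TPM that lay below those of replicates 1 (22.7 to 24.3 TPM) and 2 (24.6 to 26.4 TPM). A coefficient of variation at least as large as its 22.3% was found in 1.36% of coding genes with at least 10 TPM and in 3.6% of all expressed ones. The gene is compact, 2 exons in 4.98 kb from 158610767 to 158615748 on chromosome 2. The antisense model Gm14205 shares 697 exonic bases with it and was listed at 0, 0.031 and 0 TPM, far below Slc32a1.

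Slc32a1 lay below Gad1 in each library, by -1.94 ± 0.11 log2 units, with ratios of 0.28, 0.24 and 0.26 in replicates 1, 2 and 3 (exact sign-flip p = 0.25, adjusted p = 0.25, n = 3), and by -3.77 log2 units with coding transcripts summed. Against Gad2 the difference was smaller, at -0.28 ± 0.18 log2 units, and in replicate 1 it was -0.08 (exact sign-flip p = 0.25, adjusted p = 0.25, n = 3). The vesicular transporter gene was thus much nearer in level to the terminal isoform than to Gad1. Of 6 genes for other vesicular transmitter transporters, 2 were expressed, against 61.8% of all coding genes. These were the glutamate transporter genes Slc17a7 at 89.98 ± 4.47 and Slc17a6 at 6.28 ± 1.23 TPM. Slc17a8, a further glutamate transporter gene, stood at 0.65 ± 0.08 TPM. The vesicular acetylcholine transporter gene Slc18a3 was lowest, with 2 reads in replicate 1 and none in replicates 2 and 3, whose upper limits for 0 reads are 0.029 and 0.027 TPM.

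**Figure D2:**
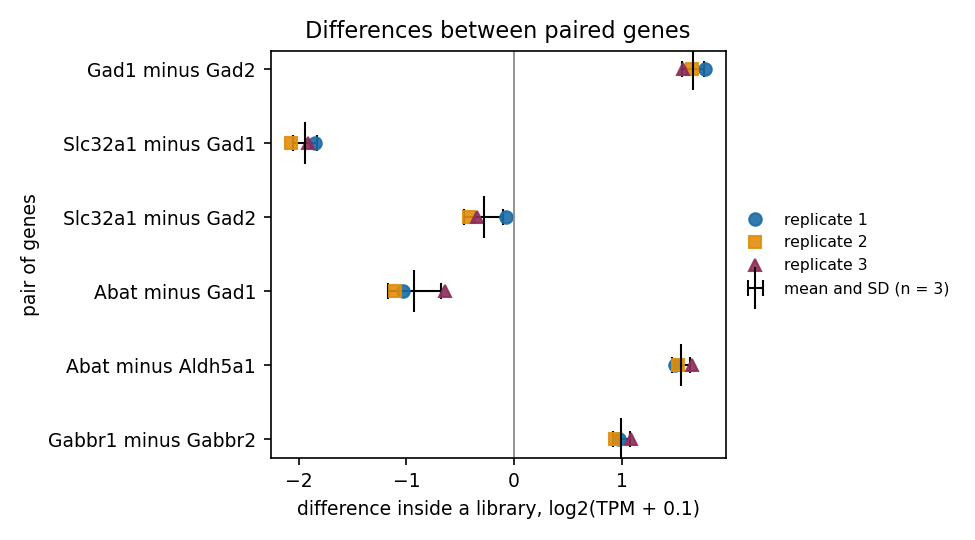
Difference between paired genes inside each library on the log2(TPM + 0.1) scale (horizontal axis), the first gene minus the second, with symbols for 3 control libraries and bars for mean and SD. Each of the 6 pairs shown keeps 1 sign in the 3 libraries, and Slc32a1 minus Gad2 lies nearest to 0 at -0.28.

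Abat encodes GABA transaminase, the mitochondrial enzyme that turns GABA into succinic semialdehyde. It stood at 41.6, 49.8 and 39.3 TPM in replicates 1, 2 and 3, a mean of 43.6 ± 5.50 TPM (SD, n = 3). Replicate 2 was highest and replicate 3 lowest, a 1.27-fold span. Replicates 1 and 3 lay closer together, but their Poisson intervals, 40.8 to 42.4 and 38.5 to 40.1 TPM, did not overlap. Abat lay below Gad1 in each library by -0.93 ± 0.25 log2 units, with ratios of 0.49, 0.46 and 0.64 in replicates 1, 2 and 3 (exact sign-flip p = 0.25, adjusted p = 0.25, n = 3). The gap was thus smallest in replicate 3, where Gad1 was lowest. Abat spans 8513429 to 8621568 on chromosome 16, plus strand, with 16 exons in 4636 exonic bases.

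Aldh5a1, the dehydrogenase gene for the next step of breakdown, stood at 14.7, 17.2 and 12.4 TPM in replicates 1, 2 and 3. Abat exceeded it in each library by 1.56 ± 0.08 log2 units, with ratios of 2.83, 2.89 and 3.16 (exact sign-flip p = 0.25, adjusted p = 0.25, n = 3). The ratio of these consecutive enzymes hence varied little between libraries, but the difference was 3.38 log2 units with coding transcripts summed. Of 9 other genes of GABA metabolism, 8 were expressed, against 61.8% of all coding genes. They were led by the glutamine synthetase gene Glul at 157 ± 6.15 TPM and the glutamate dehydrogenase gene Glud1 at 61.8 ± 2.01 TPM. The monoamine oxidase gene Maob, which serves an alternative route to GABA from putrescine, was lowest at 0.54 ± 0.04 TPM.

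Slc6a11 encodes a plasma membrane GABA transporter of astrocyte processes. It stood at 32.9, 32.0 and 26.8 TPM in replicates 1, 2 and 3, with a mean of 30.6 ± 3.29 TPM (SD, n = 3). Replicates 1 and 2 had overlapping Poisson intervals, 32.1 to 33.7 and 31.2 to 32.9 TPM, and replicate 3 lay below both at 26.1 to 27.5 TPM. Its coefficient of variation was 10.8%, less than that of Gad1, Gad2 or Slc32a1. The gene spans 114131241 to 114249952 on chromosome 6, plus strand, with 14 exons. Its 4066 exonic bases are those that the ends listed in the table give, 1 of the ends differing from the annotation.

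Slc6a12 and Slc6a13, GABA transporter genes that are known from liver, kidney and meninges, were at the limit of detection, unlike Slc6a11: Slc6a12 had 2 reads in replicate 3 and Slc6a13 had 1 read in replicate 1, with 0 reads in the other libraries. In replicate 2 the upper limit for 0 reads is 0.037 TPM for Slc6a12 and 0.031 TPM for Slc6a13. Of the 7 genes in the list of other GABA and glutamine transporters, 4 were expressed, against 61.8% of all coding genes. Among them were the glutamine carrier genes Slc38a1 at 30.3 ± 2.24, Slc38a3 at 20.5 ± 1.67 and Slc38a2 at 19.97 ± 1.49 TPM.

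Gabbr1 encodes the subunit of the GABA-B receptor that binds GABA. It stood at 65.4, 69.8 and 64.8 TPM in replicates 1, 2 and 3, from 17590, 15827 and 15543 reads, with a mean of 66.7 ± 2.70 TPM (SD, n = 3). This was the steadiest of the 7 genes, with a coefficient of variation of 4.05%, and 17.6% of expressed coding genes varied less. Replicates 1 and 3 had overlapping Poisson intervals, 64.4 to 66.4 and 63.8 to 65.9 TPM. The gene spans 37045966 to 37075067 on chromosome 17, plus strand, and Gabbr1-201 has 23 exons in 5248 exonic bases.

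Gabbr2 encodes the partner subunit, which carries the receptor to the cell surface and couples it to the G protein. It stood at 33.2, 36.4 and 30.5 TPM in replicates 1, 2 and 3, with a mean of 33.4 ± 2.98 TPM. Replicate 2 was highest and replicate 3 lowest, and the 3 Poisson intervals, 32.6 to 33.9, 35.7 to 37.2 and 29.8 to 31.2 TPM, did not overlap. It is the longest of the 7 genes, 329.6 kb from 46662305 to 46991873 on the minus strand of chromosome 4, with 19 exons in 5737 exonic bases by the ends listed in the table. Gabbr1 spans 29.1 kb.

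Gabbr1 exceeded Gabbr2 in each library by 0.999 ± 0.08 log2 units, with ratios of 1.97, 1.91 and 2.13 in replicates 1, 2 and 3 (exact sign-flip p = 0.25, adjusted p = 0.25, n = 3). With coding transcripts summed it was 3.19 log2 units. Of 12 genes for auxiliary subunits and effectors of the receptor, 10 were expressed, against 61.8% of all coding genes. The G protein alpha subunit genes Gnao1, Gnai1 and Gnai2 led at 193 ± 8.93, 72.3 ± 6.57 and 46.9 ± 3.09 TPM. Among auxiliary subunit genes, which set how fast the response fades, Kctd12 stood at 17.6 ± 2.38, Kctd16 at 5.38 ± 0.85, Kctd8 at 1.03 ± 0.22 and Kctd12b at 0.27 ± 0.08 TPM. Among genes for the potassium channels that the receptor opens, Kcnj3 stood at 17.6 ± 2.69, Kcnj9 at 9.81 ± 0.85 and Kcnj6 at 2.13 ± 0.20 TPM. The lowest of the list was Kcnj5, a channel subunit gene best known from heart, with 4, 0 and 1 reads in replicates 1, 2 and 3.

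**Figure D3:**
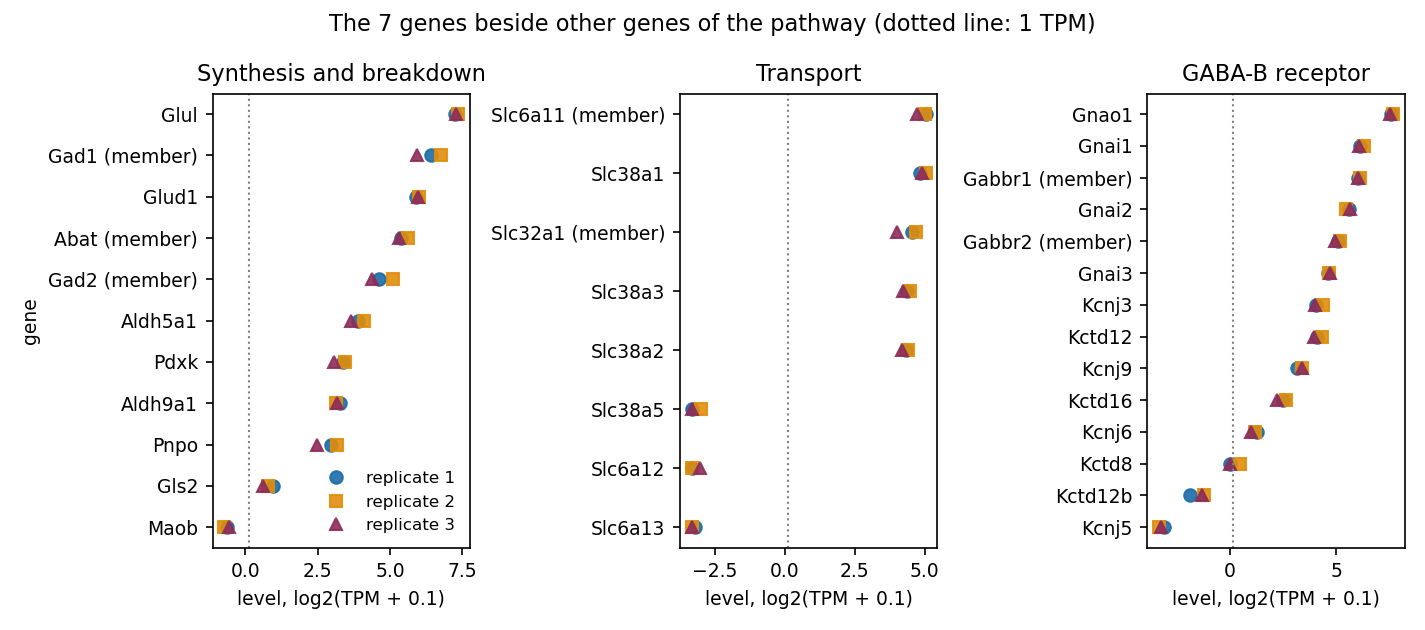
Level on the log2(TPM + 0.1) scale (horizontal axis) of the 7 genes, named as members, beside other listed genes of synthesis and breakdown, transport, and the GABA-B receptor, with symbols for 3 control libraries and a dotted line at 1 TPM. Slc6a12, Slc6a13 and Slc38a5, with at most 2 reads in any library, and Kcnj5, with at most 4, lie at the left end.

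Neighbours in the order were compared in 6 pairs. The order came from the mean levels in these same libraries, so a positive mean difference was nearly fixed in advance. The p-values of these pairs therefore give no support for the order. Of the 6 pairs, 4 differed by more than 1 SD over libraries. Gad1 and Gabbr1 did not: the difference was 0.31 ± 0.35 log2 units (exact sign-flip p = 0.50, adjusted p = 0.50, n = 3), Gad1 being higher in replicates 1 and 2 and lower in replicate 3. Nor did Slc6a11 and Gad2, at 0.23 ± 0.28 log2 units (exact sign-flip p = 0.50, adjusted p = 0.50, n = 3). Gabbr1 minus Abat was 0.62 ± 0.12, Abat minus Gabbr2 0.38 ± 0.06, Gabbr2 minus Slc6a11 0.13 ± 0.10 and Gad2 minus Slc32a1 0.28 ± 0.18 log2 units, each positive in the 3 libraries (exact sign-flip p = 0.25, adjusted p = 0.375, n = 3). With coding transcripts summed, Gad1 minus Gabbr1 was -0.060 and Abat minus Gabbr2 2.21 log2 units.

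Transcript values of a gene overlap in their reads and cannot be added, but they show which parts of a gene were covered. Gad1 had 8 transcripts in the table. The full-length Gad1-201 (84.6 ± 23.0 TPM) and the non-coding Gad1-206 (91.0 ± 25.1 TPM), which reaches the same 3′ end, stood highest. Models that end before the last exons of the gene were lower, among them Gad1-204, whose first exon lies upstream of the others, at 63.9 ± 12.6 TPM, Gad1-203 at 59.7 ± 14.0 TPM and Gad1-207 at 55.4 ± 12.9 TPM. The coding models Gad1-202 and Gad1-205 stood at 61.5 ± 14.5 and 33.1 ± 7.61 TPM. Gad1-208, a model with a retained intron, was lowest at 13.0 ± 3.01 TPM. Outside the exons of Gad1-201 lie 2823 of 3601 bases of Gad1-208, 1006 of 1705 of Gad1-205 and 326 of 1138 of Gad1-202. For Gad1-207, Gad1-203 and Gad1-204 these are 185 of 1021, 80 of 1197 and 52 of 398 bases. Values of these models are thus not coverage of the shared exons alone. Each of the 8 transcripts was highest in replicate 2 and lowest in replicate 3, as were the gene's value and 24.1% of expressed coding genes. They share exons with Gad1-201, so this repeats the pattern of the gene and is not separate evidence. Gad2-202, a short non-coding model in the 5′ part of Gad2, stood at 18.3 ± 4.31 TPM, 0.69 times the gene's value.

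Of the 7 Abat transcripts, Abat-205, a coding model whose 696 bases all lie in exons of Abat-201, stood at 47.3 ± 3.72 TPM and Abat-203, which ends earlier than Abat-201, at 38.0 ± 3.08 TPM. Abat-204 stood at 29.4 ± 1.11 and Abat-202 at 15.0 ± 1.54 TPM. Abat-207 at 10.6 ± 1.18 and the intron-retaining Abat-206 at 3.59 ± 0.33 TPM were lowest. Of their bases, 698 of 922 and 2360 of 2665 lie outside the exons of Abat-201, as do 669 of 1348 of Abat-202. These values are thus not coverage of the shared exons alone. All 7 transcripts share exonic bases with Abat-201 and so are not independent of it. Each was lowest in replicate 3, as were 40.9% of expressed coding genes.

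Gabbr1 is known for a long and a short form of its product, which start at separate promoters, and the sushi repeats of the long form direct it to axons. Gabbr1-203, which starts at the internal promoter whose upstream sequence is printed above, stood at 78.9, 84.6 and 77.2 TPM in replicates 1, 2 and 3. Gabbr1-209 and Gabbr1-202, short coding models that end upstream of that start and cover first exons of the long form, stood at 42.2, 45.5 and 46.0 TPM and at 44.6, 47.6 and 47.5 TPM. In each library the models of the 5′ part thus lay below Gabbr1-203, at 0.67 ± 0.04 and 0.70 ± 0.03 times Gabbr1-201 against 1.20 ± 0.01 times for Gabbr1-203. Gabbr1-203 shares 3668 of its 4036 bases with Gabbr1-201, while 861 of 1595 bases of Gabbr1-209 and 988 of 1460 bases of Gabbr1-202 lie outside its exons, so these values do not give the amounts of the forms. The largest value was that of Gabbr1-211, an intron-retaining model in the middle of the gene, at 104 ± 13.5 TPM. The remaining 6 models had means between 17.0 TPM (Gabbr1-210) and 78.7 TPM (Gabbr1-205). Gabbr1-210, an intron-retaining model at the 5′ end, stood between 12.6 TPM in replicate 1 and 22.4 TPM in replicate 3, from 153, 164 and 242 reads in replicates 1, 2 and 3. Of the 11 Gabbr1 transcripts, which likewise are not independent of each other, 6 were lowest in replicate 3. Of expressed coding genes 40.9% were lowest there, and no share over all transcripts was computed. Gabbr2-202, whose length in the table is uncertain, was listed at 29.3, 33.4 and 25.7 TPM.

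**Figure D4:**
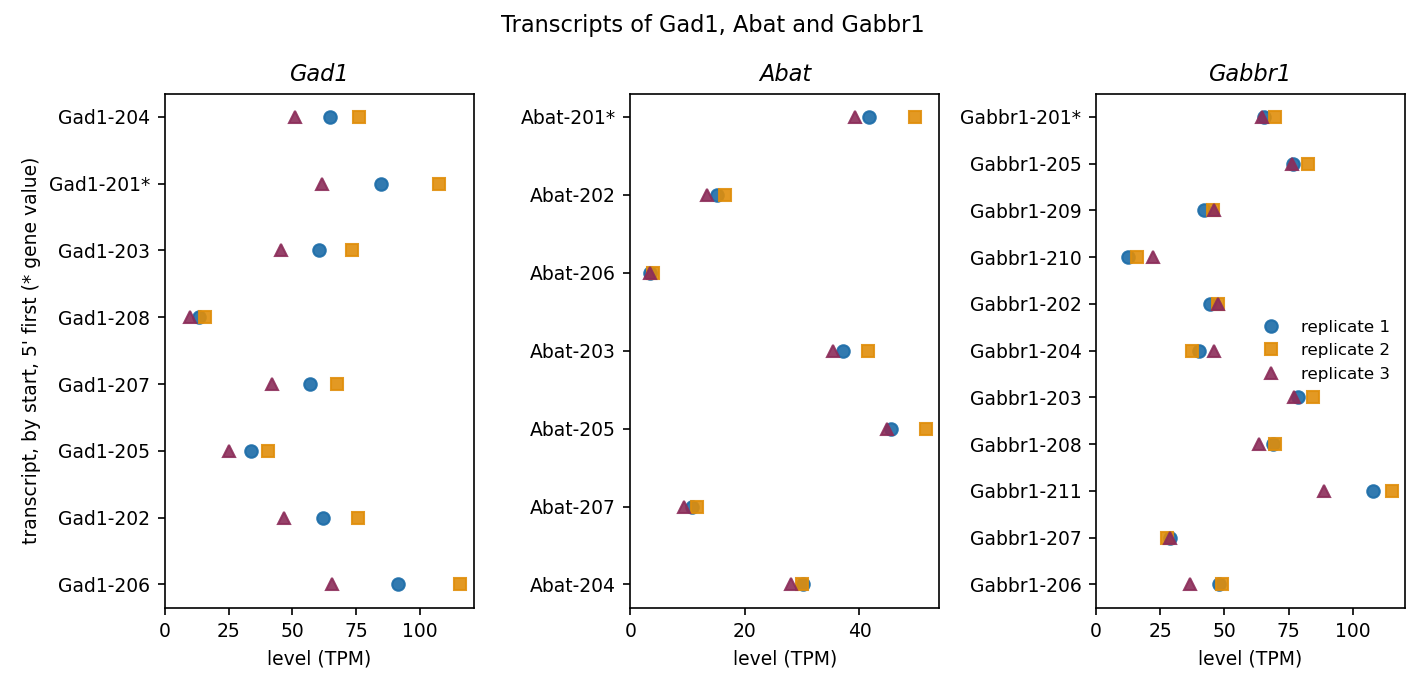
Level in TPM (horizontal axis, from 0) of each transcript of Gad1, Abat and Gabbr1 in 3 control libraries, ordered by start, with an asterisk at the transcript that gives the gene's value. Gad1-201 and Gad1-206 lie above the models of the 5′ part, and Gabbr1-203 lies above Gabbr1-209 and Gabbr1-202.

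Replicate 3 held the lowest value of all 7 genes, against 40.9% of 11196 expressed coding genes, although Gabbr1 was lowest in replicate 1 once values were rescaled to nuclear coding genes. Lowest values fell in replicate 1 for 33.6% of expressed coding genes. Replicate 2 held the highest value of 6 of the 7 genes, against 40.4% of expressed coding genes, and those 6 were both highest there and lowest in replicate 3, against 24.1%. Slc6a11 was highest in replicate 1, as 28.2% of expressed coding genes were, and none of the 7 was highest in replicate 3, against 31.4%. The sizes of these differences were unequal. Relative to their own means, Gad1, Gad2 and Slc32a1 lay at -0.42, -0.33 and -0.39 log2 units in replicate 3 and at 0.38, 0.40 and 0.26 in replicate 2. Abat lay at -0.14 and Slc6a11 at -0.18 in replicate 3, and the receptor genes Gabbr1 and Gabbr2 at -0.04 and -0.13. Among the 7 genes, Gad1, Gad2 and Slc32a1 therefore spread more than the receptor genes, a difference that was not tested.

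Marker lists were summed in the same libraries. The 16 interneuron markers summed to 212, 203 and 151 TPM in replicates 1, 2 and 3. Sst, a peptide gene at 131, 108 and 79.7 TPM, made up the largest part of each sum and was highest in replicate 1. Of the 14 expressed markers, however, 10 were highest in replicate 2, against 40.4% of expressed coding genes. In replicate 3, 11 of the 14 were lowest, Sst among them, against 40.9% of expressed coding genes. The peptide gene Npy averaged 10.1 ± 1.69 TPM. The calcium-binding protein gene Calb2 and the transcription factor gene Dlx1 were highest in replicate 3, at 17.0, 16.6 and 17.3 TPM and at 7.15, 6.19 and 7.44 TPM. The lowest marker was Pvalb, a further calcium-binding protein gene, at 0.27 ± 0.15 TPM, and none of the 16 was at 0 in each library. Excitatory markers summed to between 349 and 360.2 TPM, with 4 of 10 lowest in replicate 3, and pan-neuronal markers to 1884, 1947 and 1667 TPM, with 7 of 8 lowest there. Astrocyte markers summed to 456, 489 and 551 TPM in replicates 1, 2 and 3, and 3 of 11 expressed ones were lowest in replicate 3. Oligodendrocyte lineage markers summed to 68.0, 50.6 and 84.8 TPM, with the myelin gene Mobp lowest of that list. The part of these lists in the spread of the 7 genes was not tested, and in bulk RNA fewer cells of a type and less RNA per cell cannot be told apart.

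Among the 5 genes whose library pattern lay nearest to that of Gad1 were Igfbp2, Lgi2, Spock3 and Nrxn3, out of 4862 other coding genes with at least 10 TPM. Likeness was the largest difference between 2 genes in their log2(TPM + 0.1) deviations from their own means over 3 libraries. It was 0.05 for Igfbp2 (58.2, 73.0 and 44.1 TPM in replicates 1, 2 and 3), which encodes a binding protein of insulin-like growth factors. For Nrxn3, which encodes a presynaptic adhesion molecule, it was 0.08, and Gad2 and Slc32a1 followed at ranks 10 and 13 with 0.11 and 0.13. Abat, Gabbr2, Slc6a11 and Gabbr1 ranked 428, 536, 637 and 1828 of the 4862 genes. With 3 libraries of 1 group this is a description and carries no test.

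**Figure D5:**
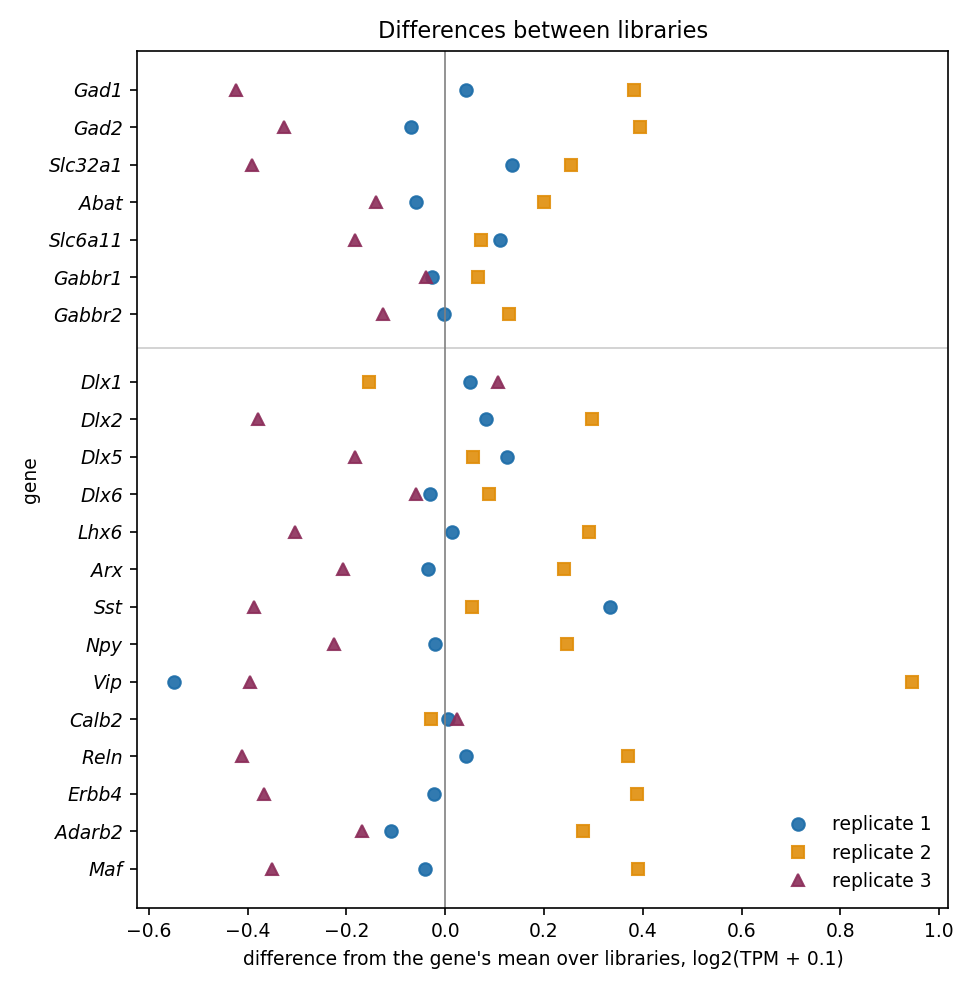
Difference of each library from the gene's mean over 3 libraries on the log2(TPM + 0.1) scale (horizontal axis) for the 7 genes and the 14 expressed interneuron markers, with symbols for replicates. Gad1 lies at -0.42 in replicate 3 and 0.38 in replicate 2, and Gabbr1 within 0.07 of its mean.

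Unique placement of reads was checked for the 7 genes. Of 50-base stretches taken every 10 bases of their transcripts, 97.6% occurred at most once in the genome for Gad1, 98.1% for Gad2 and 99.6% for Gabbr1, and all did for Slc32a1, Slc6a11, Abat and Gabbr2. Stretches across exon boundaries do not occur as such at their own locus, so those that occurred once elsewhere also passed. The antisense gene Gad1os, which overlaps the Gad1 span without sharing its exons, had at most 0.34 TPM in any transcript.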

How the data were processed

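TPM values of 84660 transcripts, from a table named for GENCODE mouse release M4, were used as the authors deposited them, 1 column per library. The build mm10 and the tools STAR 2.5.3a, Subread 1.4.6, featureCounts and FastQC 0.11.2 are named in the submitters' processing notes. How reads of overlapping transcripts were assigned is not given in the sources used here. Identifiers, with their versions removed, were looked up in GENCODE M21 on GRCm38, the same build, and 98.1% were found. Exonic lengths used the ends listed in the table. TPM times length was a whole multiple of 1 constant, within 0.01 of a read, in 98.0% of rows above 0 per library, and in 31 of the 32 transcripts of the 7 genes. Intervals are exact 95% Poisson intervals of these reads. For a count of 0 an upper limit of 3 reads was used instead, which is lower than the upper end of that interval.

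Genes were compared as log2(TPM + 0.1) differences inside a library, tested by two-sided exact permutation of signs (sign-flip), with Benjamini-Hochberg adjustment over 7 listed pairs, of which 1 is not reported here, or 6 neighbour pairs. No 2 columns were identical. Named are the 7 genes and their transcripts, the 3 highest and the lowest member of the pathway lists, genes of the pairs, and the 5 genes of at least 10 TPM nearest to Gad1. Dlx1 and the further list members named were picked with their values in view. The members and lists were chosen with earlier results of these data known. Motifs were searched on both strands of RefSeq promoters, and 50-mers with BLAST+ 2.17.0. The recovery of reads was tested on simulated data: all reads of 20000 simulated rows came back. Alternatives were pseudocounts of 1 and 0.01, the sum over coding transcripts, the most abundant one, rescaling to nuclear coding genes, other minimums and leaving out each library. Python 3.11.15, numpy 2.4.6, pandas 2.3.3, scipy 1.17.1 and matplotlib 3.10.9 were used. Re-analysed data on RNA-DNA hybrids, which the study's design text names, were not used here.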

Additional observations from a re-analysis of the deposited data

How the results depend on the processing

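The 6 listed pairs reported here kept their sign under pseudocounts of 1 and 0.01, both other transcript choices, rescaling and leaving out each library. Their sizes depended on the transcript choice: with the sum over coding transcripts, Gad1 minus Gad2 was 3.49, Slc32a1 minus Gad1 -3.77, Abat minus Aldh5a1 3.38 and Gabbr1 minus Gabbr2 3.19 log2 units, against 1.66, -1.94, 1.56 and 0.999 as reported. Among neighbours in the order, Gad1 minus Gabbr1 turned to -0.060 log2 units with the sum over coding transcripts, and Abat minus Gabbr2 was 2.21. The neighbour pairs other than Gad1 minus Gabbr1 kept their sign under the same alternatives. That sum counts shared reads repeatedly and set the levels of Gad1, Abat and Gabbr1 at 299, 154 and 305 TPM. Gabbr1 stood at 80.2 TPM with its most abundant coding transcript. Rescaling to nuclear coding genes multiplied values by 4.63, 4.59 and 4.75 in replicates 1, 2 and 3 (2.21, 2.20 and 2.25 log2 units) and gave 393 TPM for Gad1, 123 for Gad2, 101 for Slc32a1, 142 for Slc6a11, 202 for Abat, 310.1 for Gabbr1 and 155 TPM for Gabbr2. It moved the lowest library of Gabbr1 to replicate 1. All 7 genes stayed expressed at minimums of 0.5 and 5 TPM. No paired analysis was possible because the 3 libraries form 1 group, and the differences inside a library already pair the genes. With 3 libraries no p could fall under 0.25, so no call rests on a test. Depth sets a limit only for genes with a few reads, such as Slc6a12 and Slc6a13.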
